A study of Homo sapiens with 6 samples.

Results

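The UPF and SMG proteins are the core machinery of nonsense-mediated mRNA decay (NMD), the pathway that destroys mRNAs whose translation stops too early. Their mRNAs were followed in cultured HEK293T cells after silencing of LOC550643. This established line derives from human embryonic kidney and expresses the large T antigen of SV40. The 9 factors described are UPF1, UPF2, UPF3A, UPF3B, SMG1, SMG8, SMG9, SMG5 and SMG6, found by symbol among 26391 gene rows, and all 9 passed a filter on low values that left 16245 genes. The LOC550643 group received a pool of 4 siRNAs against that gene, and the control group received a human non-silencing siRNA. Both were transfected at 50% confluency, poly-A RNA was collected 48 hours later, and each group held 3 libraries. LOC550643, listed as LINC01420 and also named NBDY, encodes a small protein whose known partner is EDC4, which assembles the complex that removes mRNA caps. One pool stood against 1 control siRNA, so what silencing did and what these siRNAs did otherwise cannot be told apart.

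In NMD, the RNA helicase UPF1 meets a terminating ribosome, and UPF2 links it to UPF3B, which binds the exon junction complex left downstream by splicing. The kinase SMG1, held in a complex with SMG8 and SMG9, phosphorylates UPF1, and phosphorylated UPF1 recruits the endonuclease SMG6 and the adaptor SMG5. Several mRNAs that encode these factors are themselves known NMD substrates, and the factors also act on many intact mRNAs with long 3′ UTRs or upstream reading frames.

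After LOC550643 siRNA, 3 of the 4 UPF factors rose, and of the 5 SMG factors 1 fell and 4 did not pass. UPF3B, UPF1 and UPF2 were the factors that rose, SMG9 fell, and UPF3A, SMG1, SMG8, SMG5 and SMG6 did not pass the test. The median log2 fold change of the 9 was 0.02, beside -0.02 for all genes tested. Changes passing the test were common in these libraries: 35.6% of genes had an adjusted p under 0.05 in limma, 17.5% higher and 18.2% lower. The share of the 9 factors that passed, 44.4%, lay near that background, so the members are described one by one. With other processing the split of calls moved. Higher genes made up 49.0% of calls as reported, 34.4% with library totals as deposited and 59.5% with a trend on gene length removed.

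The silenced gene checked the labels. LINC01420 stood at 56.2, 50.7 and 51.8 CPM (the gene's share of a library's assigned reads, in the usual per-library scaling) in control replicates 1, 2 and 3, and at 5.85, 5.96 and 5.41 CPM in LOC550643 siRNA replicates 1, 2 and 3. It fell by 89.1%, and the groups did not overlap. Libraries held 8604236 to 36082404 read pairs assigned to genes, inferred from the deposited values, and the smallest was LOC550643 siRNA replicate 3. All 7 HEK293-like markers were measured, with means of single markers from 6.36 to 841 CPM. Their summed levels were 1038 to 1157 CPM in control libraries and 1173 to 1289 CPM after LOC550643 siRNA. Of the 7, 2 rose, beside 17.5% of all genes. Blood markers summed to at most 0.392 CPM in any library, with 1 of 3 at 0 in all, and liver markers to at most 0.846 CPM. The 3 fibroblast markers summed to 59.3 to 68.4 CPM in control and 61.5 to 65.8 CPM in LOC550643 siRNA libraries, and the 1 of them that passed the filter did not pass the test.

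The promoters of UPF3B and UPF1 are shown because these were the factors with the smallest p. The letters come from RefSeq's promoter table (GRCh38.p14). The 250 bases of each gene were found once on its own chromosome in GRCh37, the build of the deposited table. Other chromosomes and the other strand were not searched. Only letters before the gene start in the deposited table are printed, 5′ to 3′ on the strand of the gene. Capitals mark the GC box (GGGCGG) and the CCAAT box (CCAAT), each on either strand. They were among 9 motifs searched on both strands, and no match overlapped another in these stretches.
UPF1 (chr19:18942518-18942743, plus strand): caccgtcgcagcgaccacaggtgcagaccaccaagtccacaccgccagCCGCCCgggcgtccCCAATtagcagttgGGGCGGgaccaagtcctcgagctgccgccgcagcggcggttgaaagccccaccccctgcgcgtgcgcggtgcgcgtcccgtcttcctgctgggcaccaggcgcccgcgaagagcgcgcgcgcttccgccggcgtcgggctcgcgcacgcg
UPF3B (chrX:118986992-118987176, minus strand): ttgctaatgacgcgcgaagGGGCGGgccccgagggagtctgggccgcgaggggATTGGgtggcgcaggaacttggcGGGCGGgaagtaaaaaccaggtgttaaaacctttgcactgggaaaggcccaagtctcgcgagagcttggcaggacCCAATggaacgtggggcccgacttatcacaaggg
The UPF1 stretch holds 2 GC boxes, 178 to 173 and 150 to 145 bases before the start, around a CCAAT box at 164 to 160 bases. The UPF3B stretch holds 2 GC boxes, at 166 to 161 and 109 to 104 bases, and 2 CCAAT boxes, at 132 to 128 and 34 to 30 bases. Such letters are common. Over the 250 bases before each of 35116 listed starts, 42.6% held a GC box and 32.0% a CCAAT box. Among the 15 starts listed for these factors, SMG8 having no entry, 10 held a GC box and 5 a CCAAT box. The E-box CACGTG was in 2 of the 15 and in 6.34% of all starts. The other 6 motifs were in none of the 15. They were the ETS motif CCGGAAGT, the TATA box TATAAA, the CRE motif TGACGTCA, the ATF4 motif TGATGCAA, and those of NRF1 and YY1. Their shares over all starts ran from 0.248% (YY1) to 10.7% (TATA box).

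Among the core UPF factors, UPF3B (NM_023010, chrX:118967989-118986991 in hg19, minus strand, 11 exons in the GENCODE canonical transcript) bridges UPF2 and the exon junction complex. Its level was 124, 119 and 150 CPM in control replicates 1, 2 and 3. After LOC550643 siRNA it was 194, 227 and 213 CPM. Each LOC550643 siRNA library lay above each control library, and the spread within groups was similar, 16.8 and 16.7 CPM (SD, n = 3 each). UPF3B rose 1.62-fold (95% interval 1.40 to 1.87; log2 fold change 0.70 ± 0.10 SE; limma adjusted p = 0.000267), more than 97.7% of all genes tested. In bulk RNA, a change per cell cannot be told apart from a change in the share of cells that carry the transcript.

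UPF1 (NM_001297549, chr19:18942744-18979041, plus strand, 24 exons), the helicase on which the pathway turns, had the smallest standard error of the 9. Control replicates 1, 2 and 3 stood at 202, 221 and 203 CPM. LOC550643 siRNA replicates 1, 2 and 3 stood at 270, 281 and 275 CPM, a coefficient of variation of 2.01%. The groups did not overlap, and UPF1 rose 1.32-fold (95% interval 1.19 to 1.46; log2 fold change 0.40 ± 0.07 SE; limma adjusted p = 0.000964). The calls of UPF1 and UPF3B held under all 20 alternatives.

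UPF2 (NM_080599, chr10:11962021-12085169, minus strand, 22 exons) is the adaptor between UPF1 and the UPF3 proteins. Control libraries held 50.5, 56.1 and 56.5 CPM, and LOC550643 siRNA libraries 60.5, 68.6 and 77.2 CPM, each above the controls. UPF2 rose 1.26-fold (95% interval 1.09 to 1.45; log2 fold change 0.33 ± 0.09 SE; limma adjusted p = 0.0159). The call was lost without control replicate 1 (limma adjusted p = 0.0740), without LOC550643 siRNA replicate 2 (0.0516) and without LOC550643 siRNA replicate 3 (0.0646), with log2 fold changes of 0.28, 0.33 and 0.25.

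UPF3A (NM_023011, chr13:115047059-115071291, plus strand, 10 exons), the paralog of UPF3B, was the lowest of the 9 per length in control libraries. Its control libraries held 10.6, 12.7 and 12.9 CPM, and its LOC550643 siRNA libraries 14.3, 14.7 and 14.9 CPM. The groups did not overlap, yet the difference of 0.28 ± 0.10 (log2, SE) did not pass in limma (adjusted p = 0.0503), and it passed under 7 of 20 alternatives. UPF3A is also the factor with the most shared sequence: 33.1% of the 75-base windows of its transcript recur in transcripts of 3 other genes, most in UPF3AP2 and UPF3AP1. No such window of UPF1, UPF2, UPF3B, SMG9 or SMG5 recurs. How the counting treated reads from shared windows is not given in the sources used here, so the UPF3A level is uncertain.

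All 4 core factors thus had groups that did not overlap, all in the higher direction. Of the 4, 3 rose, beside 17.5% of all genes, and the UPF2 call was lost without some libraries. Over all genes tested, groups did not overlap in the higher direction for 23.7%. The plot of levels by library shows the 4 pairs of groups apart beside the overlapping SMG5 and SMG6 pairs.

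**Figure D1:**
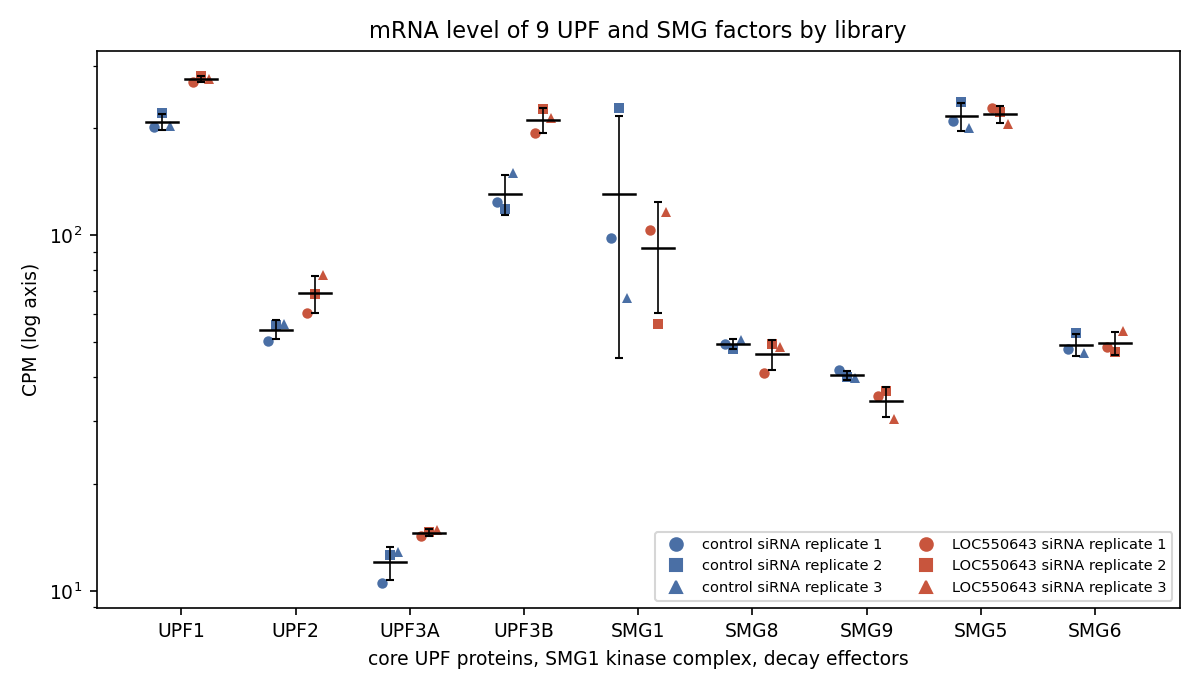
Level of each factor in each of the 6 libraries (CPM, log axis), control siRNA in blue and LOC550643 siRNA in red, with the mean (wide bar) and SD (n = 3). The 4 UPF factors lie higher after LOC550643 siRNA without overlap, and the SMG1 libraries spread from 56.3 to 229 CPM.

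Of the 3 kinase complex genes, 1 fell, beside 18.2% of all genes, and 2 did not pass. SMG9 (NM_019108, chr19:44235301-44259142, minus strand, 14 exons), which with SMG8 restrains the kinase, was the member that fell. Its control libraries held 41.8, 39.9 and 39.7 CPM, and its LOC550643 siRNA libraries 35.5, 36.6 and 30.4 CPM, each below the controls. Over all genes tested, groups did not overlap in the lower direction for 24.9%, and in either direction for 48.5%. SMG9 fell by 15.8% (log2 fold change -0.25 ± 0.09 SE; limma adjusted p = 0.0406). The call was lost without control replicate 1 (limma adjusted p = 0.122), control replicate 3 (0.0744), LOC550643 siRNA replicate 1 (0.0540) and LOC550643 siRNA replicate 3 (0.136), with log2 fold changes of -0.23, -0.26, -0.28 and -0.17. In all it was lost under 9 of 20 alternatives, among them DESeq2 (adjusted p = 0.0661) and removal of a length trend (limma adjusted p = 0.0690).

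SMG8 (NM_018149, chr17:57287371-57292611, plus strand, 4 exons), the binding partner of SMG9, stood at 49.6, 47.9 and 50.9 CPM in control libraries. After LOC550643 siRNA it stood at 41.1, 49.4 and 48.5 CPM, so the groups overlapped and replicate 1 was the low library. The log2 difference of -0.10 (95% interval -0.28 to 0.08) did not pass in limma (adjusted p = 0.382). A second annotated coding gene, ENSG00000265303, covers 13.1% of the exon bases of SMG8 on the same strand, and reads there cannot be assigned to one of them.

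SMG1 (NM_015092, chr16:18816175-18937726, minus strand, 63 exons), the kinase that phosphorylates UPF1, varied most. It held 98.4, 229 and 66.6 CPM in control replicates 1, 2 and 3, and 104, 56.3 and 116 CPM in LOC550643 siRNA replicates 1, 2 and 3. Control replicate 2 was the highest library and LOC550643 siRNA replicate 2 the lowest. The log2 difference of -0.38 had an interval from -1.20 to 0.44 and did not pass in limma (adjusted p = 0.454), and without control replicate 2 it was 0.11 (adjusted p = 0.772). Its SE of 0.37 compares with 0.07 to 0.10 for the other 8 factors and a median of 0.09 over all genes.

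The spread of SMG1 went together with transcript length. SMG1 is 16000 bases long in the deposited table, and 383 of the genes tested have at least 10000 bases. The SMG1 log2 level of control replicate 2 lay 1.498 above the mean of control replicates 1 and 3, while the median of the long genes lay 0.70 above and the median of the 15862 other genes at -0.01. Control replicate 3 lay at -1.17 for SMG1 and -0.49 for the long genes by the same measure, and LOC550643 siRNA replicate 2 at -0.96 and -0.43. In all 6 libraries the long-gene median had the sign of SMG1, and 78.6% (LOC550643 siRNA replicate 1) to 96.6% (control replicate 2) of long genes shared it. SMG1 is itself among the 383 long genes. The values within a group are not independent, since each library is set against the mean of the other 2. Long genes were called less often than other genes, with 16.4% against 36.1% passing in limma. Among the long genes called, 53 were lower and 10 higher, and the median log2 fold change of all long genes was -0.21. Their median SE was 0.20, against 0.09 for other genes, and the part of length in the SMG1 values was not tested. Looked up after these values were seen, the genes whose pattern over the 6 libraries was most like that of SMG1 were AKAP13 (Pearson r 0.998, 13278 bases), MYCBP2 (0.998, 14940 bases) and CHD7 (0.997, 11540 bases).

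**Figure D2:**
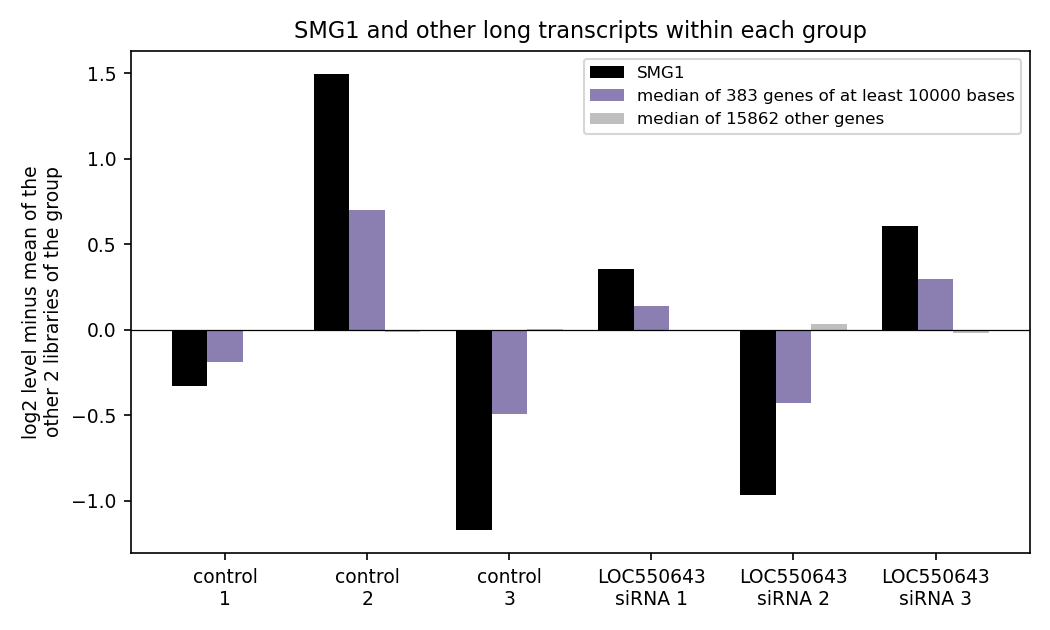
Log2 level of each library minus the mean of the other 2 libraries of its group, for SMG1 (black), the median of 383 genes of at least 10000 bases (violet) and the median of 15862 other genes (grey). The long genes follow the sign of SMG1 in all 6 libraries, and the other genes stay between -0.02 and 0.03.

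SMG1 also has many copies of parts of its sequence. Of its 75-base windows, 14.7% recur in other annotated transcripts, among them SMG1P1 to SMG1P6. Levels were read for a few of these copies. SMG1P2 averaged 4.01 CPM in control libraries and 4.17 CPM after LOC550643 siRNA, and SMG1P5 averaged 3.01 and 2.83 CPM. SMG1P1 averaged 2.09 and 2.33 CPM, and SMG1P3 2.72 and 3.04 CPM. SMG1P7, looked up later and not among the copies named above, held 8.29, 9.14 and 6.47 CPM in control libraries. After LOC550643 siRNA it held 2.67, 3.13 and 4.16 CPM. Its groups did not overlap, unlike those of SMG1, and 24.9% of all genes tested had groups apart in the lower direction.

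The decay effectors stayed close to the control level. SMG5 (NM_015327, chr1:156219015-156252620, minus strand, 22 exons), an adaptor that binds phosphorylated UPF1, held 210, 238 and 201 CPM in control libraries and 228, 223 and 206 CPM after LOC550643 siRNA. SMG6 (NM_017575, chr17:1963133-2207069, minus strand, 19 exons), the endonuclease that cuts the target near the stop codon, held 48.1, 53.1 and 46.6 CPM and then 48.6, 47.0 and 53.9 CPM. Both pairs of groups overlapped. The log2 differences were 0.02 for SMG5 (95% interval -0.15 to 0.20; limma adjusted p = 0.861) and 0.02 for SMG6 (-0.16 to 0.19; limma adjusted p = 0.900). With library totals as deposited both turned slightly negative, -0.05 and -0.06. HIC1 lies on the opposite strand across 29.8% of SMG6 exon bases. The counting command names no strand option, so reads of the pair may not be separated there, and HIC1 itself averaged 6.26 CPM in control libraries and 6.29 CPM after LOC550643 siRNA.

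**Figure D3:**
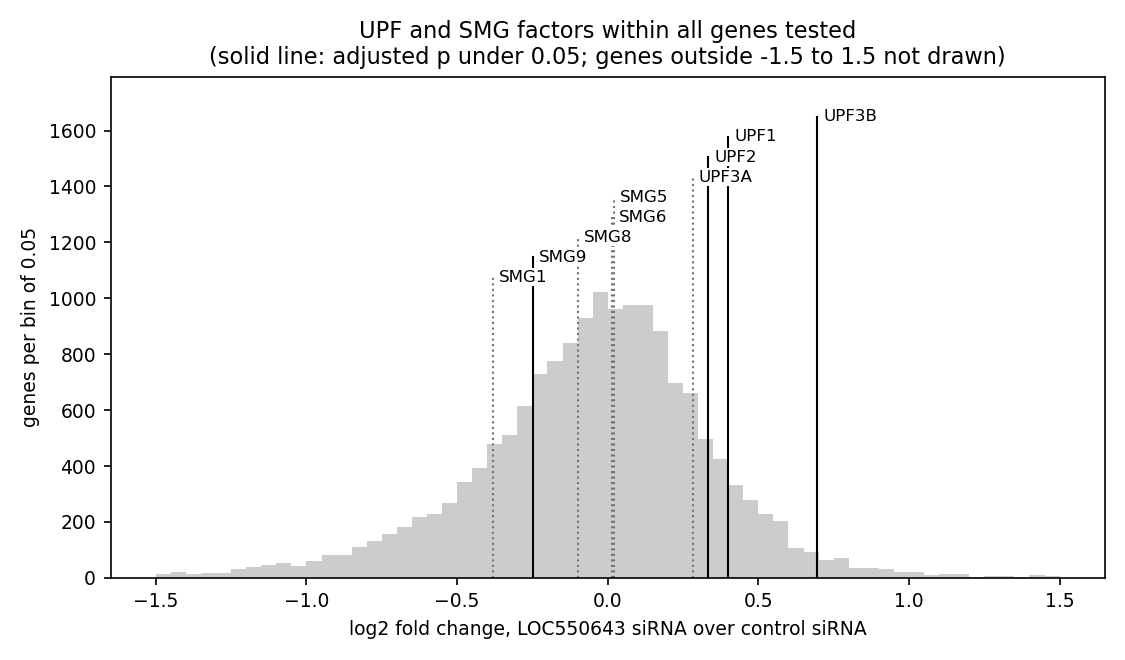
Log2 fold changes of the 9 factors (vertical lines, solid where limma's adjusted p is under 0.05) over the histogram of the genes tested, of which 114 lie outside the drawn range. UPF3B stands in the upper tail, while SMG5, SMG6 and SMG8 lie near the peak of the histogram.

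Levels of different genes were compared per length, as CPM per kilobase of exon, with no test. In control libraries UPF3B was highest at 55.6 ± 7.16 (SD, n = 3), and SMG5 followed at 47.6 ± 4.22, with ranges that overlapped. UPF1 at 39.0 ± 1.93 lay below every SMG5 library. SMG9 (17.3 ± 0.511) and SMG8 (15.2 ± 0.456) formed a middle level and did not overlap. UPF2 (10.2 ± 0.624) stood above SMG6 (8.28 ± 0.578). SMG1 (8.20 ± 5.37) overlapped UPF2, SMG6 and UPF3A (5.08 ± 0.543). UPF3A had the lowest mean, at a level uncertain because of its shared windows. After LOC550643 siRNA, UPF3B stayed first at 89.8 ± 7.09, and UPF1 at 51.4 ± 1.03 passed SMG5 at 48.3 ± 2.53, its lowest library at 50.4 against 50.3 for the highest of SMG5. At the low end SMG1 (5.76 ± 1.98) and UPF3A (6.15 ± 0.132) changed places, with ranges that overlapped. The partners UPF1 and UPF2 thus differed several-fold in level in both groups, as did SMG5 and SMG6.

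**Figure D4:**
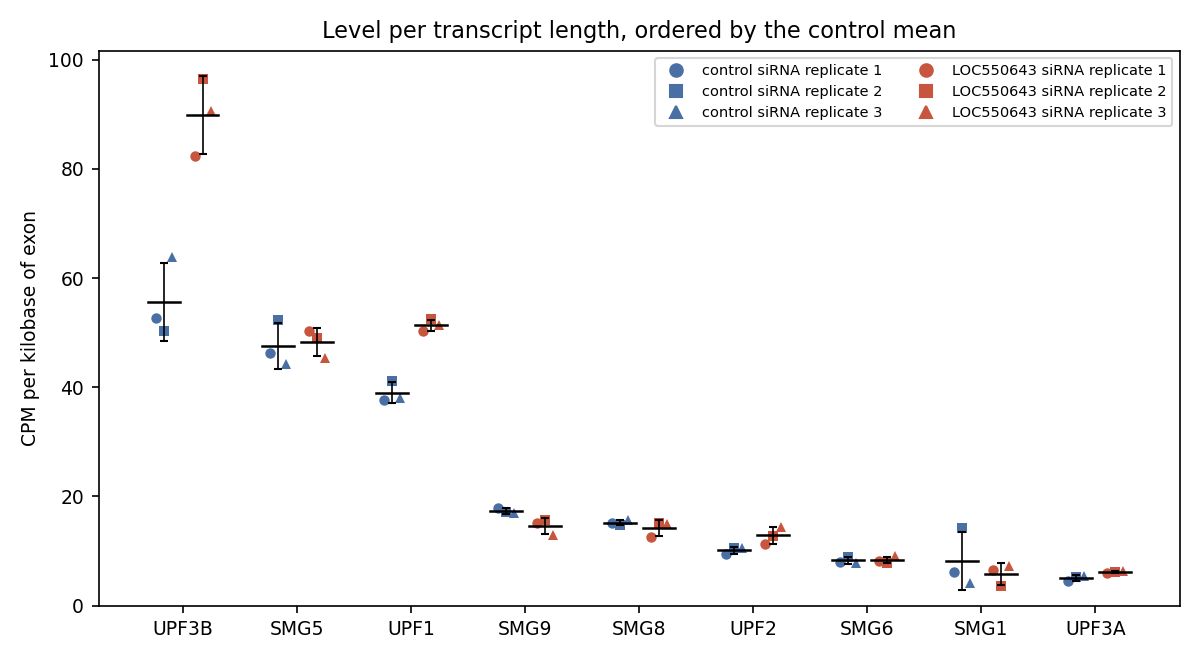
Level per kilobase of exon (CPM per kilobase, linear axis) of each factor in each library, ordered by the control mean, with mean and SD (n = 3). UPF3B, SMG5 and UPF1 lie at or above 37.7 in every library and the other 6 factors at or below 17.9.

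Ratios between members within a library do not depend on how libraries were scaled. The log2 ratio of UPF3B to UPF3A was 3.55, 3.22 and 3.54 in control libraries and 3.76, 3.95 and 3.84 after LOC550643 siRNA. It was higher by 0.41 without overlap, and the exact permutation test gave p = 0.1, the smallest that 3 against 3 libraries allow (two-sided; 0.4 adjusted over 4 ratios). Per length, UPF3B exceeded UPF3A 10.96-fold in control and 14.6-fold in LOC550643 siRNA libraries. These folds rest on the UPF3A level, which is uncertain, since 33.1% of its 75-base windows recur in other transcripts. The other 3 ratios overlapped between groups: UPF2 to UPF1 differed by -0.07, SMG8 to SMG9 by 0.15 and SMG5 to SMG6 by 0.01, with exact permutation p of 0.5, 0.4 and 1.0.

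The transcripts themselves differ in features that the choice of members did not use, taken from GENCODE canonical transcripts and ranked among 13408 coding genes tested. SMG1 has a coding sequence of 10983 bases, longer than 99.4% of genes, and UPF3B one of 1449 bases, close to the median of 1431. The 3′ UTR was long in SMG1 (4712 bases) and SMG9 (3616 bases) and short in SMG8 (231 bases), around a median of 1327. For SMG9 the canonical transcript has 5491 bases, but the deposited table gives 2337. Its 3′ UTR thus does not lie wholly in the exons counted for its level. UPF1 was the richest in G and C at 60.4%, while UPF2 (41.2%) and UPF3B (41.3%) lay at percentiles 21.0 and 21.4. The 3 factors that rose therefore lay on both sides of the median GC content of 49.2%, and their 3′ UTRs of 1716, 1279 and 859 bases on both sides of the median length.

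UPF3B and UPF1 were not alone in their pattern. Of 12481 genes with a mean of at least 5 CPM, 854 had a Pearson r above 0.95 with UPF3B over the 6 libraries, and 738 with UPF1. The closest to UPF3B were ZNF664 (r 0.999), AIFM1 (0.998) and VTA1 (0.998), with log2 fold changes of 0.39, 0.44 and 0.42. The closest to UPF1 were PODXL (r 0.999), CCDC8 (0.999) and DENND5A (0.997), with log2 fold changes of 0.46, 0.32 and 0.30. These correlations describe 6 libraries in 2 groups and share the difference between those groups.

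Beyond the 9 factors, 24 partner genes of the pathway were read from the same fit. Of these, 11 rose and 13 did not pass (45.8% passing, beside 35.6% of all genes), with a median log2 fold change of 0.19. The 4 with the smallest p were RNPS1, GNL2, ETF1 and GSPT1. RNPS1, a splicing activator that joins the exon junction complex, held 215, 205 and 214 CPM in control libraries. It held 343, 399 and 363 CPM after LOC550643 siRNA, a log2 rise of 0.80 ± 0.07 (SE; limma adjusted p = 2.36e-05). It was one of 2 of the 7 exon junction genes that rose, beside 17.5% of all genes. The other, CASC3, named after its values were seen, rose by 0.20 (log2; limma adjusted p = 0.0319). The CASC3 call was lost without any 1 of control replicates 1, 2 and 3 or LOC550643 siRNA replicates 2 and 3, with limma adjusted p from 0.0522 to 0.120, and with library totals (0.130) or the upper quartile (0.0609).

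Around termination, ETF1, which encodes the release factor that reads stop codons, held 163, 158 and 177 CPM in control libraries and 227, 220 and 229 CPM after LOC550643 siRNA. It rose by 0.44 ± 0.07 (log2, SE; limma adjusted p = 0.000583), and so did GSPT1, which encodes its GTPase partner, by 0.42 ± 0.07 (log2, SE; limma adjusted p = 0.000895). GSPT1 held 296, 315 and 327 CPM in control libraries and 404, 422 and 431 CPM after LOC550643 siRNA. In both genes each LOC550643 siRNA library lay above each control library, as in 23.7% of all genes tested. They were 2 of the 3 release factor genes, beside 17.5% of all genes that rose. The other, GSPT2, named after its values were seen, did not pass (log2 fold change 0.004; limma adjusted p = 0.988). GNL2, a nucleolar GTPase listed as an auxiliary NMD factor, held 83.9, 84.8 and 93.6 CPM and then 115, 137 and 125 CPM, a log2 rise of 0.52 ± 0.08 (SE; limma adjusted p = 0.000553). Of the 6 auxiliary factors 4 rose, beside 17.5% of all genes. Of these, NBAS and DHX34, named after their values were seen, lost their calls when some libraries were left out. NBAS (log2 fold change 0.23) was lost without any 1 of control replicates 1 and 3 and LOC550643 siRNA replicates 1, 2 and 3, with limma adjusted p from 0.0588 to 0.127. It was also lost with library totals (limma adjusted p = 0.135), the upper quartile (0.0546) and the replicate block (0.0561). DHX34 (log2 fold change 0.29) was lost without control replicate 3 (limma adjusted p = 0.0554) or LOC550643 siRNA replicate 2 (0.0513). RUVBL1 and RUVBL2, an addition to the named genes, are the whole of the group listed for SMG1 regulation and encode ATPases that sustain SMG1-type kinases. Both rose (log2 fold changes 0.31 and 0.41; limma adjusted p = 0.00613 and 0.00104), beside 17.5% of all genes. Of the 2 cap binding genes 1 rose, beside 17.5% of all genes, and of the 2 phosphatase genes 0 rose. The former, NCBP2, named after its values were seen, had overlapping groups (log2 fold change 0.23; limma adjusted p = 0.0446). The NCBP2 call was lost without control replicates 1 (limma adjusted p = 0.143) or 2 (0.0909), or LOC550643 siRNA replicates 2 (0.145) or 3 (0.150). It was also lost with library totals (limma adjusted p = 0.144), the upper quartile (0.0695) and no filter (0.0578). The listed effector gene and the poly-A binding gene did not pass.

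**Figure D5:**
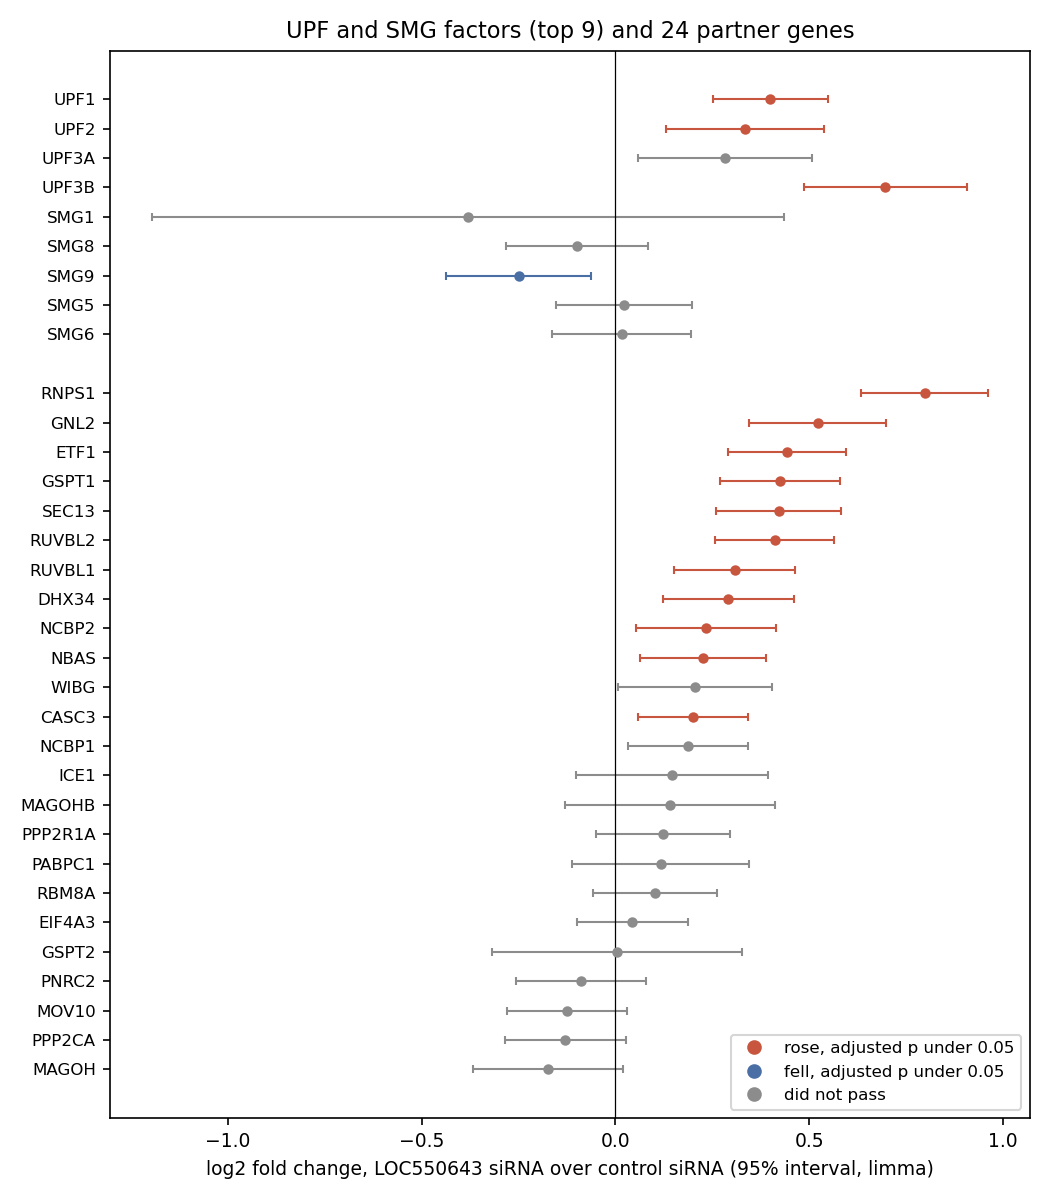
Log2 fold change of the 9 factors (top) and 24 partner genes, LOC550643 siRNA over control siRNA, with 95% intervals from limma, in red where the gene rose, blue where it fell and grey where it did not pass. UPF3B, UPF1, UPF2 and 11 partners are in red, and SMG9 in blue.

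Among 24 genes known for transcripts that NMD degrades, 8 rose and 2 fell, while 14 did not pass (41.7% passing, beside 35.6% of all genes), with a median log2 fold change of 0.14. The list did not move as a unit. Of 9 stress-response genes 7 rose, beside 17.5% of all genes, among them ATF3, PPP1R15A and TNFRSF10B, with log2 fold changes of 0.82, 0.69 and 0.45. These genes are also induced by ATF4 or p53, and the part of either in their levels was not tested. Of the 8 noncoding host genes 2 fell, beside 18.2% of all genes, and 6 did not pass. SNHG16 fell furthest (log2 fold change -1.25 ± 0.08 SE; limma adjusted p = 2.62e-06), from 468, 438 and 534 CPM in control libraries to 202, 205 and 196 CPM after LOC550643 siRNA. The other, SNHG1, named after its values were seen, had overlapping groups and fell by 0.34 (log2; limma adjusted p = 0.0298). The SNHG1 call was lost without control replicate 1 (limma adjusted p = 0.120), control replicate 3 (0.102), LOC550643 siRNA replicate 2 (0.121) or LOC550643 siRNA replicate 3 (0.111), and with the length trend removed (0.0656). Gene-level values do not separate NMD-sensitive isoforms from others.

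In the authors' deposited table, 19.8% of all rows had an adjusted p under 0.05. The authors' deposited table gave log2 fold changes of 0.69 for UPF3B (adjusted p = 1.14e-08), 0.40 for UPF1 (5.9e-05) and 0.33 for UPF2 (0.0116). In the authors' deposited table SMG9 stood at -0.23 (adjusted p = 0.102) and UPF3A at 0.27 (0.103), both above that threshold.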

How the data were processed

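Poly-A selected dUTP libraries from 6 samples, 3 per siRNA, were sequenced as paired 75-base reads, per the labels' protocols. Reads were aligned to hg19 with STAR 2.4.0, per the submitters' processing notes, and counted per gene over exons with HOMER, per the file headers. The deposited per-library values are a signal: gene coverage scaled by the authors to a common total. They are whole multiples of 1 step per library (100% of values within 0.1 step), taken to be 1 read end. Of 26391 rows, 4787 were at 0 throughout. For a gene at 0, the limit of 3 pairs equals 0.0831 to 0.349 CPM, for counting error only. Log2 fold changes and p-values from the authors' edgeR comparison were only set beside the values computed here.

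The test was limma 3.58.1 (two-sided, empirical Bayes with a mean trend) on log2(value + 1 deposited unit, 0.034 CPM), which understates changes of low genes. TMM factors came from edgeR 4.0.16 on recovered pairs, genes were kept by its filter with a minimum of 10 pairs, and Benjamini-Hochberg adjustment ran over 16245 genes. "Rose" and "fell" mean an adjusted p under 0.05. CPM are deposited values over the TMM-scaled total. Labels do not say that replicates were separate cultures, so the p-values reflect sample-to-sample spread that may be technical only. The members and gene lists were chosen with earlier results of these data known. The rule for named genes took the 9 factors and the silenced gene, 4 genes with the smallest p of each list, and the 3 genes most like each of the 2 factors with the smallest p; later additions are marked, and 1 listed gene is not reported here and is left out of its list's counts. Alternatives were other scalings, filters and a pseudocount of 0.1, DESeq2 1.42.0 and edgeR's quasi-likelihood test on recovered reads (2885 genes higher and 3019 lower on pairs), a replicate block, an adjusted p of 0.01, each library left out, and length and GC trends. The fits with GC content, with a length trend per library and with read ends were chosen after seeing the data. Scripts were tested on simulated data. Exons and transcripts came from GENCODE 44 mapped to GRCh37. Exon counts of the factors are those of its canonical transcripts, which can differ from the transcripts named beside them.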

Additional observations from a re-analysis of the deposited data

How the results depend on the processing

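Over 20 alternatives, UPF3B ranged from 0.62 to 0.80 and UPF1 from 0.32 to 0.45 on the log2 scale, both called in each. At an adjusted p of 0.01, 1770 genes were higher and 1751 lower, 0 members were lower, 7 partners were higher, and 1 NMD-sensitive gene was lower. The count of members lower, 1 as reported, was 0 without the filter, with DESeq2, with the length trend removed and with GC and length trends removed, and 0 to 1 with a library left out. Partners higher, 11 as reported, ranged from 7 to 10 and partners lower from 0 to 1 with a library left out, and 3 were lower with library totals. NMD-sensitive genes higher were 13 with a length trend removed from each library. Those lower were 1 with either length or GC and length trend removed, and 1 to 4 with a library left out. The cause of these shifts was not tested.

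Small differences changed sign. SMG1 was 0.11 without control replicate 2 and -0.77 without control replicate 3. SMG5 was -0.0546 with library totals, -0.0078 with the upper quartile, -0.0292 without control replicate 3 and -0.0086 without LOC550643 siRNA replicate 1, and at most 0.0806 with a library left out. SMG6 was -0.0598 with library totals, -0.0130 with the upper quartile, and between -0.0411 and -0.0012 without LOC550643 siRNA replicate 3, control replicate 3 (-0.0233) or control replicate 1, and at most 0.0608 with a library left out. The UPF2 to UPF1 ratio was 0.0086 without LOC550643 siRNA replicate 1 and at lowest -0.15 with a library left out. The SMG5 to SMG6 ratio was -0.0059, -0.0414 and -0.0491 without control replicate 3, LOC550643 siRNA replicate 1 and LOC550643 siRNA replicate 2. The cause was not tested.

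Replicate numbers were not taken to pair the samples. After each group's mean was subtracted per gene, same-numbered libraries correlated at 0.06, -0.28 and -0.12. Differently numbered libraries of the 2 groups correlated at -0.14 to 0.25 by the same measure. With 3 libraries per group these values cannot show whether samples were paired. With the replicate block, 2673 genes were higher and 2717 lower, and 3 members rose and 1 fell. Depth limits LOC550643 siRNA replicate 3 most, where UPF3A had 125 pairs.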
